A study of Mus musculus with 2 samples.

Results

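The WNT pathway was read in embryonic stem (ES) cells of the mouse E14 line, kept undifferentiated with serum and LIF, a cytokine that sustains self-renewal. The cells overexpress Klf5, a zinc finger transcription factor of the pluripotency network. Total RNA of 2 such clones, named clone 2 and clone 1, was hybridised to 2 Affymetrix arrays, 1 array per clone, and both clones carry the transgene. Wild-type ES cells, against which the study set these clones, were not analysed here, so no value below is an effect of Klf5. Genes were chosen by symbol as Wnt ligands, Frizzled receptors and their Lrp co-receptors, Dishevelled, Axin, Apc, Gsk3 and beta-catenin genes, TCF/LEF factors, and antagonists of the Sfrp, Dkk, Notum and Znrf3/Rnf43 kinds. This gave 55 genes, read by 113 probe sets, of 18193 genes and 34945 probe sets that carry a single symbol. Fzd10os, a transcript on the strand opposite to Fzd10, matches by its name and is counted among the 55. No probe set with a single symbol reads Tcf7.

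Wnt proteins are lipid-modified ligands that bind a Frizzled receptor together with Lrp5 or Lrp6. Without a ligand, Axin, Apc and the Gsk3 kinases form a destruction complex that marks beta-catenin for degradation. With a ligand, Dishevelled proteins hold that complex at the membrane, and beta-catenin accumulates and acts with TCF/LEF factors in the nucleus. In mouse ES cells the pathway is known to favour self-renewal, in large part by relieving repression by Tcf7l1, and Axin2, Notum and Znrf3 are known feedback targets.

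Signals are on the log2 scale as deposited, 1 value per probe set and clone. A gene with several probe sets is represented by the brightest. A gene was taken as above background in a clone where its signal passed 6.35 in clone 2 or 6.72 in clone 1. These levels are the 95th percentile of a background set in each clone. The set is made of the 113 probe sets that read 76 genes listed here as restricted to adult tissues. Whether each of these genes is silent in ES cells was not tested. Differences are clone 2 minus clone 1. With 1 array per clone there is no test between the clones and no p-value, so differences are described by their size, 1.5-fold or 2-fold. Affinities of probe sets differ, so no gene's signal is ranked against another gene's. Because these are bulk RNA samples, fewer cells with a transcript and less transcript per cell cannot be told apart.

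As a check of the cells, all 8 markers of undifferentiated ES cells were above background in both clones, and the brightest Klf5 probe set read 12.25 in clone 2 and 11.61 in clone 1. Of 12 fibroblast markers, Thy1 and Pdgfrb passed in both clones and Acta2 in clone 2 alone, while the collagens Col1a1, Col1a2 and Col3a1 were not above background. Markers in both clones numbered 1 of 7 for primitive endoderm (Dab2), 2 of 7 for primitive streak and mesoderm (Eomes and Mesp2) and 1 of 5 for neurectoderm (Nes). The streak marker T (Brachyury) was also listed but was not found under that symbol. Mesp1, a regulator of early mesoderm, read 6.04 in clone 2 and 7.30 in clone 1, at least 1.93-fold lower in clone 2. Whether such cells contribute to the values below was not tested.

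5 promoters are shown because Klf factors are known to bind CACC and GC boxes and because the results below turn on these genes. Each is the stretch of 250 bases before the annotated start of the gene in RefSeq on build GRCm38.p6, read 5′ to 3′ on the gene's own strand. Capitals mark the GC box GGGCGG or its reverse complement CCGCCC, and the CACC box CCACCC or its reverse complement GGGTGG. Neither motif contains the other, and neighbouring GC boxes may overlap. The receptor promoters are Fzd5 (chr1:64737751-64738000, minus strand) and Fzd7 (chr1:59481897-59482146, plus strand). Those of the transducers are Dvl2 (chr11:70000342-70000591, plus strand) and Ctnnb1 (chr9:120933150-120933399, plus strand), and that of the nuclear factor is Tcf7l1 (chr6:72789046-72789295, minus strand).
Fzd5: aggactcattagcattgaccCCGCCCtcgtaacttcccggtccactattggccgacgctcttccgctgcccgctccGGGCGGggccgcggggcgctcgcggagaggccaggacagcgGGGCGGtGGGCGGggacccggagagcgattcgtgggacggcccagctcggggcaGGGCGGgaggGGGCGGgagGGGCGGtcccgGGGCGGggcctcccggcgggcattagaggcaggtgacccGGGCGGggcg
Fzd7: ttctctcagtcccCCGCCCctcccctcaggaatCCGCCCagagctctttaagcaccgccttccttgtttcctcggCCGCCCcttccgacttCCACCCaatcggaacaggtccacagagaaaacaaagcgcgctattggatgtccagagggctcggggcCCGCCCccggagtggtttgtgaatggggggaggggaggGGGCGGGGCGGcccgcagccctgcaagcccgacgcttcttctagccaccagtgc
Dvl2: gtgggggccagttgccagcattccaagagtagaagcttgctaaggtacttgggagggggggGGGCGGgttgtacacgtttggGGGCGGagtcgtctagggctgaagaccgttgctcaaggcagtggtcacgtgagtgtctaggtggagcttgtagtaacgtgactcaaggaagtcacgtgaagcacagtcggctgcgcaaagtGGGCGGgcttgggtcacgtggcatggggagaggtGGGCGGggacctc
Ctnnb1: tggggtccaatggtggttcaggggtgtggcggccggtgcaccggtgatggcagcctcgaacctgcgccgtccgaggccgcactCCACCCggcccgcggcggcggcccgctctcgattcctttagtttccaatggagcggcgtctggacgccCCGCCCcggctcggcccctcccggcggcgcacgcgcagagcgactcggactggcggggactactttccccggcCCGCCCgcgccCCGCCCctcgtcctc
Tcf7l1: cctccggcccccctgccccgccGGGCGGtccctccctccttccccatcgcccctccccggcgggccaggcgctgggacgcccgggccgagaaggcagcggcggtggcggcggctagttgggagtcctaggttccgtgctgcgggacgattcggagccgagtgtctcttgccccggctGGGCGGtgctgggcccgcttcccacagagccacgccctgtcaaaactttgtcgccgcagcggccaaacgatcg

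Fzd5 holds 9 GC boxes, Fzd7 6, Dvl2 4, Ctnnb1 3 and Tcf7l1 2, and Fzd7 and Ctnnb1 hold 1 CACC box each. Over the 36 members with a promoter in the RefSeq table, 28 (77.8%) held a GC box, against 35.4% of 27025 genes in that table, and 16 (44.4%) held a CACC box, against 30.6%. A gene with several annotated starts was counted if any of its windows held the motif. The GC box was present in 13 of 14 of these members that were above background in at least 1 clone and in 15 of 22 that were above it in neither. The CACC box was present in 5 of those 14 and 11 of those 22. Base composition moves with these counts: the median G and C content was 66.8% in the windows of members and 52.4% over all windows. It was 74.4% in the windows of members above background in at least 1 clone and 63.6% in those of members above it in neither. The TCF/LEF motif CTTTGAT or its reverse complement ATCAAAG was present for 2 of the 36 members, Wnt5b and Wnt11, against 3.72% of all genes. These matches are descriptions of letters in a window, no binding was measured here, and the part of base composition in them was not tested.

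Of the 55 members, 21 (38.2%) were above background in both clones, against 47.4% of all genes measured. At least 1 clone passed for 26 (47.3%), against 52.2% of all genes. In clone 2 alone 5 of the 55 members passed, against 854 of 18193 genes (4.69%), and 29 members passed in neither clone. The number of probe sets per gene moves with the share that passes. With a single probe set 3 of 20 members passed in both clones, against 33.3% of such genes, with 2 probe sets 13 of 23, against 54.2%, and with 3 or more 5 of 12, against 70.0%. By role, 8 of 9 cytoplasmic transducers passed in both clones. Receptors and co-receptors passed there for 4 of 12, ligands for 4 of 19, secreted antagonists for 3 of 9 and TCF/LEF factors for 1 of 3. The roles also differ in probe sets per gene, and the part of this in the role counts was not tested.

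**Figure D1:**
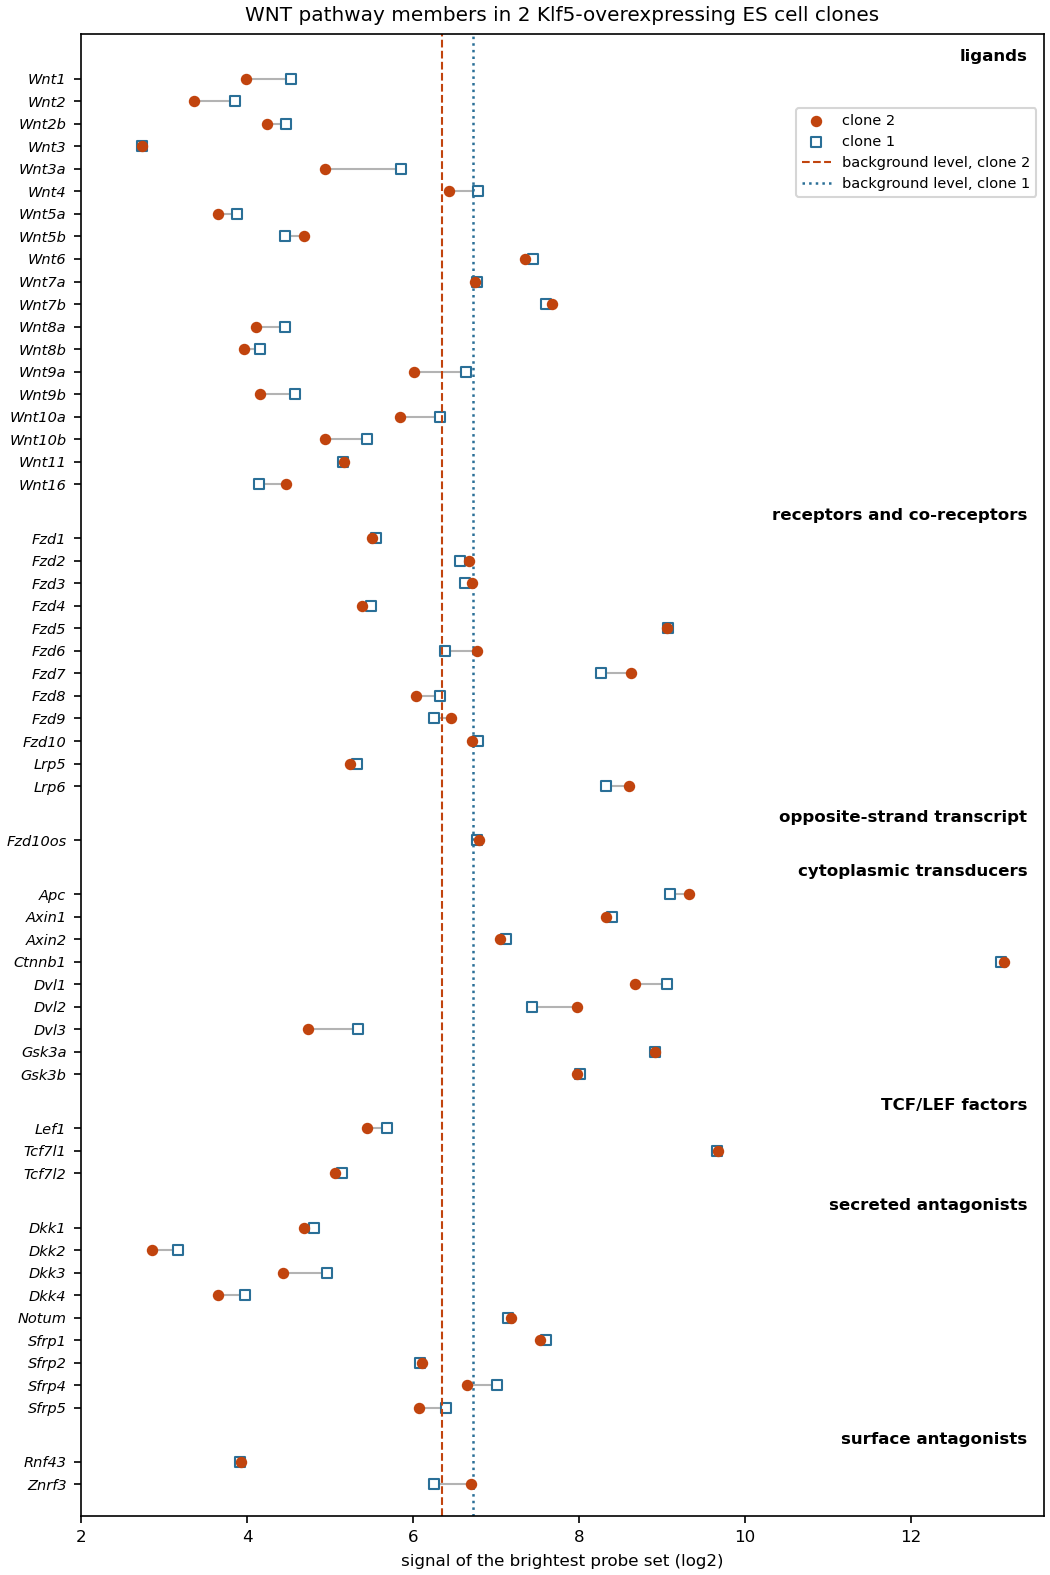
Signal of the brightest probe set of each of the 55 members in clone 2 (filled circles) and clone 1 (open squares), grouped by role, on the log2 scale. Dashed and dotted lines mark the background levels of 6.35 in clone 2 and 6.72 in clone 1: in 8 of 9 transducers both clones pass their own line, and in 15 of 19 ligands neither does.

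Most Wnt ligand transcripts were not above background. Wnt7b, a ligand of lung, placental and brain vessel development, read 7.67 in clone 2 and 7.60 in clone 1, and Wnt6, known from extraembryonic and epithelial tissues, read 7.35 in clone 2 and 7.45 in clone 1. Both passed in both clones and differed by less than 1.1-fold. Wnt7a, a dorsal limb signal, lay just over the levels at 6.75 in clone 2 and 6.77 in clone 1. Wnt4, a kidney and gonad factor, lay there too at 6.43 in clone 2 and 6.78 in clone 1. Each of these 4 genes passed by a single probe set, and the remaining probe sets of each gene (1 for Wnt4, Wnt6 and Wnt7b, 2 for Wnt7a) were not above background.

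The other 15 ligands spanned 2.73 to 6.01 in clone 2 and 2.73 to 6.64 in clone 1. Among them Wnt3, which is required for the primitive streak, read 2.73 in both clones by its only probe set. Whether that probe set detects Wnt3 was not tested. Wnt3a, a ligand often added to ES cell cultures, read 4.94 in clone 2 and 5.86 in clone 1, and this difference lies below both background levels. Wnt5a, which mostly acts without beta-catenin, read 3.65 in clone 2 and 3.88 in clone 1 by its brightest of 4 probe sets, none of them above background. Wnt9a came closest to passing, with 6.01 in clone 2 and 6.64 in clone 1. The remaining 11 were Wnt1, Wnt2, Wnt2b, Wnt5b, Wnt8a, Wnt8b, Wnt9b, Wnt10a, Wnt10b, Wnt11 and Wnt16.

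In the RefSeq gene order of GRCm38.p6, 4 pairs of these ligand genes are direct neighbours among protein-coding genes. Wnt6 and Wnt10a lie together on chromosome 1, and of these Wnt6 passed and Wnt10a did not (5.84 in clone 2 and 6.32 in clone 1). Neither member passed in the pairs Wnt3a and Wnt9a or Wnt9b and Wnt3, on chromosome 11, or in the pair Wnt10b and Wnt1, on chromosome 15.

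The receptors with signal clear of background were Fzd5, Fzd7 and the co-receptor Lrp6. Fzd5, a Frizzled needed for yolk sac and placental vessels, read 9.06 in clone 2 and 9.07 in clone 1 (mean 9.07 ± 0.01, SD, n = 2), and its other probe set read 8.32 in clone 2 and 8.25 in clone 1. The clones thus differed by 1.01-fold by the brighter probe set. Fzd7, a Frizzled described in pluripotent cells, read 8.63 in clone 2 and 8.26 in clone 1, 1.29-fold higher in clone 2. The other Fzd7 probe set, at 5.90 in clone 2 and 5.69 in clone 1, was above background in neither clone. Lrp6, the co-receptor phosphorylated on ligand binding, read 8.60 in clone 2 and 8.33 in clone 1 by the brighter probe set. Its other probe set read 7.29 in clone 2 and 6.85 in clone 1, so both were higher in clone 2, by 1.21-fold and 1.36-fold. Lrp5, the related co-receptor, was not above background at 5.24 in clone 2 and 5.33 in clone 1.

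Fzd10 lay close to the levels at 6.71 in clone 2 and 6.78 in clone 1, as did Fzd10os at 6.79 in clone 2 and 6.77 in clone 1. Fzd2, Fzd3, Fzd6 and Fzd9 passed in clone 2 alone. Fzd6, an inhibitory and planar polarity receptor, read 6.77 in clone 2 and 6.39 in clone 1, and was thus higher in clone 2 by at least 1.03-fold. Fzd2 read 6.67 in clone 2 and 6.56 in clone 1, Fzd3 6.71 in clone 2 and 6.63 in clone 1, and Fzd9 6.46 in clone 2 and 6.25 in clone 1. These 3 signals in clone 2 are under the level of clone 1, so the genes passed in clone 2 through its lower level. The remaining probe sets of Fzd2, Fzd3, Fzd6, Fzd10 and Fzd10os were above background in neither clone, and Fzd9 has a single probe set. Fzd1, Fzd4 and Fzd8 were above background in neither clone, at 5.39 to 6.03 in clone 2 and 5.49 to 6.33 in clone 1.

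The transcripts of the destruction complex and of beta-catenin were above background in both clones. Ctnnb1, which encodes beta-catenin, read 13.12 in clone 2 and 13.08 in clone 1 (mean 13.10 ± 0.03, SD, n = 2). Its other probe sets read 11.05 in clone 2 and 11.11 in clone 1, and 10.32 in clone 2 and 10.42 in clone 1. All 3 differed by less than 1.1-fold, and none was lower than 10.32 in either clone. Transcript signal does not measure the beta-catenin protein, whose stability the pathway controls.

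Apc, the scaffold of the complex, read 9.32 in clone 2 and 9.10 in clone 1, and 3 of its 4 probe sets passed in both clones with differences of -0.07 to 0.22. Axin1, the other scaffold, read 8.32 in clone 2 and 8.40 in clone 1, and its second probe set passed in clone 2 alone. Gsk3a, a kinase of the complex, read 8.91 in both clones. Its paralogue Gsk3b read 7.98 in clone 2 and 8.01 in clone 1 by the brightest of 6 probe sets, 3 of which passed in both clones. Of these 3, a second read 7.86 in clone 2 and 7.74 in clone 1, and the third read 7.62 in clone 2 and 8.07 in clone 1. The third was 1.37-fold lower in clone 2 while the other two lay within 1.1-fold, so the probe sets of Gsk3b do not give a common difference.

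Of the Dishevelled genes, which carry the signal from receptor to complex, Dvl1 and Dvl2 were above background in both clones. Dvl2 read 7.98 in clone 2 and 7.43 in clone 1 (mean 7.71 ± 0.39, SD, n = 2), 1.46-fold higher in clone 2. This difference of 0.55 was the largest among the 21 members above background in both clones, and 5.72% of all genes above background in at least 1 clone differed by as much. The other Dvl2 probe set, at 6.44 in clone 2 and 6.11 in clone 1, was above background in clone 2 alone and also higher there. Dvl1 gave opposite differences: its brighter probe set read 8.68 in clone 2 and 9.06 in clone 1, and the other read 8.45 in clone 2 and 8.10 in clone 1. The first was 1.30-fold lower and the second 1.27-fold higher in clone 2, so no direction is given for Dvl1. Dvl3 was not above background at 4.73 in clone 2 and 5.34 in clone 1.

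Of the TCF/LEF factors, Tcf7l1 (Tcf3 in older texts), the repressor of pluripotency genes in ES cells, was the one above background. Its brightest probe set read 9.67 in clone 2 and 9.66 in clone 1 (mean 9.67 ± 0.01, SD, n = 2). The other read 9.67 in clone 2 and 8.97 in clone 1, 1.62-fold higher in clone 2, whereas the brightest differed by 1.01-fold. Lef1, an activator induced in many WNT-responsive tissues, was not above background at 5.45 in clone 2 and 5.69 in clone 1. Tcf7l2, the main factor of the intestine, was below it in all 4 probe sets, of which the brightest by its mean read 5.06 in clone 2 and 5.15 in clone 1.

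Over the 8 members with several probe sets above background in both clones, 5 (Apc, Ctnnb1, Dvl1, Fzd5 and Gsk3b) had probe sets of opposite sign. Over all genes this held for 1550 of 3278 (47.3%). The median range of the differences within a gene was 0.28 for these members and 0.27 for all such genes. For Dvl1 the range was 0.73, reached by 6.56% of all such genes, and for Tcf7l1 it was 0.69, reached by 7.96%. Probe sets of a gene may read different transcripts, and which ones these read was not tested.

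**Figure D2:**
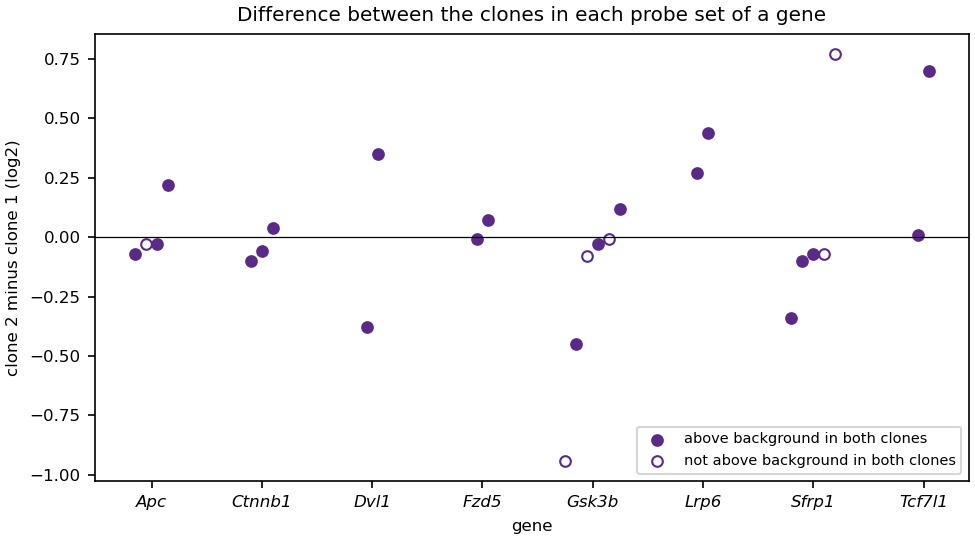
Difference between the clones (clone 2 minus clone 1, log2) in each probe set of the 8 members that had at least 2 probe sets above background in both clones. Filled points are probe sets above background in both clones: those of Dvl1 lie at 0.35 and -0.38 and those of Tcf7l1 at 0.70 and 0.01, while both of Lrp6 lie above 0.

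Genes of the Dkk family, among them the Lrp co-receptor blocker Dkk1, were all below background. They read 2.85 to 4.69 in clone 2 and 3.17 to 4.96 in clone 1. Sfrp1, a secreted Frizzled-like protein that sequesters Wnt ligands, read 7.53 in clone 2 and 7.60 in clone 1, and 3 of its 5 probe sets passed in both clones. All 3 were lower in clone 2, by 0.07 to 0.34. Sfrp4 read 6.65 in clone 2 and 7.01 in clone 1, 1.28-fold lower in clone 2 by its only probe set. Sfrp2 (6.11 in clone 2 and 6.08 in clone 1) and Sfrp5 (6.07 in clone 2 and 6.40 in clone 1) were not above background.

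The feedback genes lay near the background levels. Axin2, a scaffold and a widely used readout of beta-catenin activity, read 7.05 in clone 2 and 7.12 in clone 1 (mean 7.09 ± 0.05, SD, n = 2), and the second Axin2 probe set did not pass. Notum, the enzyme that removes the lipid of Wnt proteins, read 7.18 in clone 2 and 7.14 in clone 1. Both genes thus passed by up to 0.83 on the log2 scale and differed between the clones by under 1.1-fold. Znrf3, a ligase that clears Frizzled receptors from the surface, read 6.70 in clone 2 and 6.25 in clone 1, and passed in clone 2 alone at a signal under the level of clone 1. Its relative Rnf43 was not above background at 3.93 in clone 2 and 3.91 in clone 1.

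None of the 26 members above background in at least 1 clone differed by 1.5-fold in the signal of the brightest probe set, against 4.46% of all genes above background in at least 1 clone, and none by 2-fold, against 0.442%. Of the 26, 14 differed by under 0.1, against 30.1% of all such genes, a size chosen after the values were seen. Their median difference was 0.02 (0.015 before rounding), against 0.09 over all genes. Higher in clone 2 were 14 members, lower 11 and equal 1, against 64.1% higher over all genes. Among the 21 members above background in both clones, the largest differences after Dvl2 were those of Dvl1 (-0.38), Fzd7 (0.37), Sfrp4 (-0.36) and Wnt4 (-0.35). In Dvl2 and these genes the sign of the brightest probe set was the same after median, quantile and loess normalization. For 13 of the 26 members it was not, or the difference was 0, and Ctnnb1, Tcf7l1, Axin1, Axin2, Fzd5, Gsk3a, Gsk3b, Notum and Sfrp1 were among these. With the median over a gene's probe sets in place of the brightest, 7 of the 26 differences moved by more than 0.263, the SD of the difference over all genes above background in at least 1 clone. Those of Apc (-0.05), Dvl1 (-0.02), Fzd6 (-0.04) and Znrf3 (0.17) were then nearer to 0. Those of Tcf7l1 (0.36), Sfrp1 (-0.34) and Wnt7a (0.60) were farther from it. For Fzd6 and Wnt7a the probe set behind that value was not above background. The value of Znrf3 averages 2 probe sets, of which 1 was above background in neither clone.

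**Figure D3:**
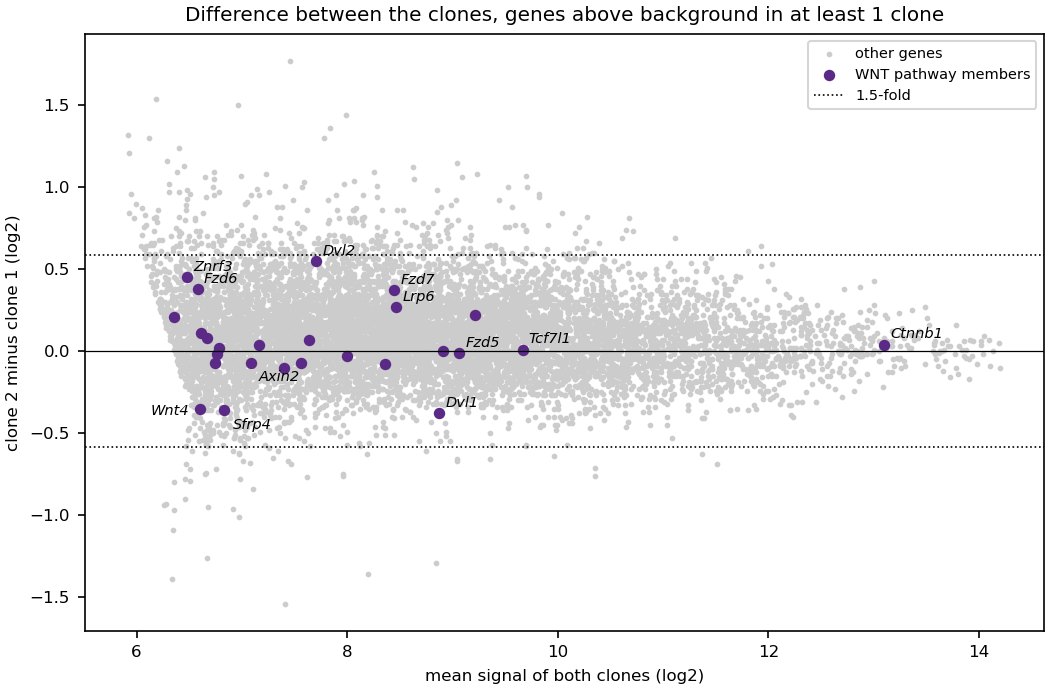
Difference between the clones (clone 2 minus clone 1, log2) against the mean signal of both clones (log2) for genes above background in at least 1 clone, with the 26 members in purple and the other genes in grey. All 26 members lie between the dotted lines at 1.5-fold, and Dvl2, at 0.55, is the farthest from 0.

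Other genes of the pathway, listed by role, were read beside the members. Of 80 such genes 45 (56.2%) were above background in both clones, against 47.4% of all genes. A further 2 passed in clone 2 alone, against 4.69% of all genes, and 1 in clone 1 alone. In ligand secretion, Porcn, which attaches the lipid to Wnt proteins, read 8.76 in clone 2 and 8.47 in clone 1, and the Wnt carrier Wls was not above background at 5.20 in clone 2 and 5.65 in clone 1. Of 15 agonists and co-receptors 5 passed in both clones. These were the R-spondin receptor Lgr4 (9.64 in clone 2 and 9.48 in clone 1), the tyrosine kinase-like Wnt receptors Ryk (8.94 in clone 2 and 8.90 in clone 1) and Ror2 (7.75 in clone 2 and 7.25 in clone 1), the pseudokinase Ptk7 (7.06 in clone 2 and 6.86 in clone 1), and Reck (7.25 in clone 2 and 6.77 in clone 1), a membrane protein of Wnt7 signalling. The R-spondins Rspo1 to Rspo4 themselves were not above background.

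Among 11 other antagonists, Apcdd1, a membrane inhibitor, passed in both clones (6.70 in clone 2 and 6.87 in clone 1). Kremen2 was also listed but was not found under that symbol. Kremen1, a surface receptor for Dkk proteins, read 6.94 in clone 2 and 6.01 in clone 1, so it passed in clone 2 alone, where it was higher by 1.16-fold or more. Of 23 genes of the destruction complex and its regulators 18 (78.3%) passed in both clones, against 47.4% of all genes, including the kinase Csnk1a1 (12.58 in clone 2 and 12.39 in clone 1) and the phosphatase scaffold Ppp2r1a (12.58 in clone 2 and 12.54 in clone 1). Csnk1g1 read 8.35 in clone 2 and 7.92 in clone 1. Apc2 passed in clone 1 alone (6.32 in clone 2 and 6.76 in clone 1, at least 1.33-fold lower in clone 2). None of the 19 regulators above background in at least 1 clone differed by 1.5-fold, against 4.46% of all such genes.

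Among these other pathway genes, 2 nuclear cofactors differed by over 1.5-fold with both clones above background, by the brightest probe set. Their other probe sets and other normalizations are not given here. Tle4, a Groucho co-repressor that binds TCF factors, read 10.69 in clone 2 and 9.87 in clone 1, 1.77-fold higher in clone 2. Hipk2, a kinase that phosphorylates TCF/LEF factors, read 6.96 in clone 2 and 7.55 in clone 1, 1.51-fold lower in clone 2. With Kremen1, whose bound is under 1.5-fold, these make 3 of 48 genes that passed in at least 1 clone, beside the 4.46% of all genes. In all 11 of 14 nuclear cofactors (78.6%) passed in both clones, against 47.4% of all genes, among them the beta-catenin adaptor Bcl9 (7.32 in clone 2 and 6.88 in clone 1) and the demethylase Kdm1a (12.49 in clone 2 and 12.26 in clone 1).

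Of 17 reported targets of beta-catenin that were measured, 9 (52.9%) passed in both clones, a share near the 47.4% of all genes. The target T (Brachyury) was also listed but was not found under that symbol, so it is not counted. They were Nanog (12.49 in clone 2 and 12.21 in clone 1), Klf2 (11.38 in clone 2 and 11.02 in clone 1), Esrrb (10.57 in clone 2 and 10.12 in clone 1), Tfcp2l1, Myc, Ccnd1, Jun, Ascl2 and Tnfrsf19. Tnfrsf19, a receptor also called Troy, read 7.08 in clone 2 and 6.75 in clone 1. The other 8 targets (Sp5, Cdx1, Cdx2, Lgr5, Nkd1, Cd44, Mixl1 and Fgf8) were above background in neither clone, at 3.32 to 5.42 in clone 2 and 3.71 to 5.72 in clone 1. The median difference of the 9 above background was 0.28, and 8 of them were higher in clone 2. Over all 48 other pathway genes above background the median was 0.19 (0.185 before rounding) and 36 were higher in clone 2, against 64.1% of all genes.

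**Figure D4:**
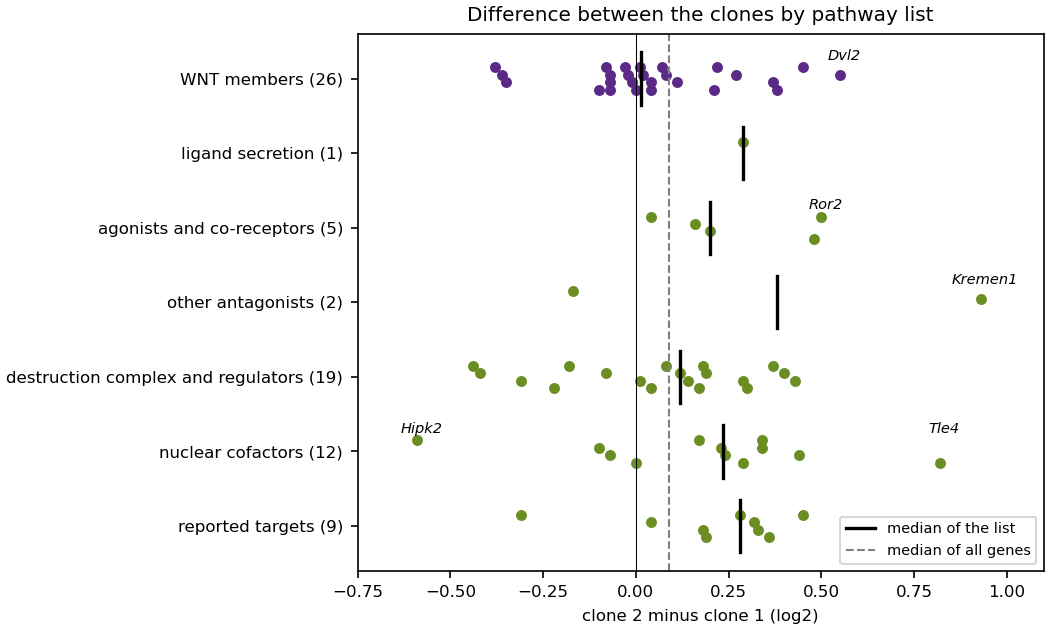
Difference between the clones (clone 2 minus clone 1, log2) of the members (purple) and of the other pathway lists (green), for genes above background in at least 1 clone, with their number in brackets. Black bars are list medians, from 0.02 for the members to 0.38 for the 2 other antagonists, and the dashed line is the median of all genes, 0.09; Dvl2, Ror2, Kremen1, Tle4 and Hipk2 are named.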

How the data were processed

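RNA of 2 samples was measured on 1 array each; both form 1 group, with the clone number as replicate number. The values deposited by the authors are summarised log2 signals. Transcriptome Analysis Console made them, per the submitters' processing notes. Its settings for background, summarisation and normalization are not stated in the labels. Nor do the labels state the base of the logarithm, taken as 2 because the values run from 2.21 to 14.38. The column medians were 5.18 in clone 2 and 5.27 in clone 1. Of 45037 probe sets, 34945 have 1 gene symbol in the platform annotation, 932 several and 9160 are unnamed here. Entrez identifiers of 34741 matched RefSeq (GRCm38.p6), which changed 0 symbols.

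Values were used as deposited. The members and lists were chosen with earlier results of these data known. Every member above background in at least 1 clone is named with both values, as are, per other pathway list, up to 4 members above background with the largest difference or the highest signal; any others there, and the cell type markers named, were picked after seeing their values. Of 87 listed adult-tissue genes 76 were measured; among them Mylpf stood apart at 10.48 in clone 2 and 10.53 in clone 1. The 2-fold rule was tested on simulated signals, with differences larger than 2-fold planted in genes clear of background. The 1.5-fold rule and calls near the background level were not tested in this way. The labels do not say whether the clones were grown or hybridised together. The number of arrays limits the precision. Python 3.11.15, pandas 2.3.3 and statsmodels 0.14.6 were used. Alternatives were other background levels, normalization by medians, by quantiles or by loess (span 0.3), and other probe set choices.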

Additional observations from a re-analysis of the deposited data

How the results depend on the processing

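The count of members above background in both clones, 21, depends on the level set: it was 12 with the 99th percentile, 34 with olfactory, vomeronasal and taste receptors as background, and 13 with the median over a gene's probe sets. The count in at least 1 clone, 26, was 14 with the 99th percentile and 16 with the median over probe sets. It rose to 30 with the 90th percentile and to 38 with the receptor background. Each clone alone gave 26 (clone 2) and 21 (clone 1). In 9 alternatives of level, probe sets, and median or quantile normalization, 10 members passed in both clones throughout: Apc, Axin1, Ctnnb1, Dvl1, Dvl2, Fzd5, Fzd7, Gsk3a, Lrp6 and Tcf7l1. Of these 9, the level without Mylpf (21) and the higher level asked of both clones (18) were chosen after seeing the data. Members that differed 1.5-fold numbered 0 as reported, 1 with the 90th percentile (Wnt9a), 1 with median normalization (Dvl2), 2 with the receptor background (Wnt3a and Wnt9a) and 3 with no background condition (these and Dvl3), and none differed 2-fold in any setting. The members' median difference was 0.105 with median normalization, -0.08 with quantile and -0.06 with loess, as the median of all genes moved to 0.18, 0 and 0.01. The count of other pathway genes above background in both clones stayed within 1.5 times of 45 in each alternative. No paired analysis was possible because there is 1 group. With no probe-level values, signal over background could not be computed from the arrays themselves.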

Other observations

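Among the 29 members above background in neither clone, 23 (79.3%) had a lower signal in clone 2, with a median difference of -0.24. Over all 8690 genes below background in both clones 65.8% were lower in clone 2, with a median of -0.15, and the background level itself was 0.38 lower in clone 2. The members above background had a median of 0.02 in the same arrays. For the 15 ligands below background the median was -0.35, with 11 lower in clone 2. These differences lie below the level at which a signal was taken as expression.

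The Gsk3b, Sfrp1 and Tcf7l2 probe sets below background gave some of the larger differences of the members, in both directions. They were -0.94 for a Gsk3b probe set (3.58 in clone 2 and 4.52 in clone 1), 0.77 for one of Sfrp1 (5.16 in clone 2 and 4.39 in clone 1), and 0.92 and -0.81 for a pair of Tcf7l2 probe sets. None of these genes differed by more than 0.09 by its brightest probe set.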
